A study of Rattus norvegicus with 3 samples.

Results

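The 10 genes described here encode neuropeptide precursors, namely Cck (cholecystokinin), Sst (somatostatin), Npy (neuropeptide Y), Penk (proenkephalin), Pdyn (prodynorphin), Vip (vasoactive intestinal peptide), Tac1 (substance P and neurokinin A), Nts (neurotensin), Adcyap1 (the pituitary adenylate cyclase-activating peptide) and Crh (corticotropin-releasing hormone). They were 10 of 38973 genes on the array, found by matching the accession of each probe to a rat RefSeq symbol. Most of the 38973 are accessions without such a symbol, since 17622 of 39957 accessions matched 1. The group was selected on measured values, since the contralateral to control ratio of Cck had been the largest, among named genes detected on all 3 arrays, in an earlier analysis of these data, so the ratios of Cck are given as a description and support nothing. RNA came from the cerebellar cortex of male Wistar rats aged 9 weeks, 2 days after transient occlusion of the right middle cerebral artery (MCAO) or after sham surgery. The contralateral array held the left and the ipsilateral array the right cerebellar cortex of the same MCAO rats, and the control array held the left cerebellar cortex of control rats. Each of the 3 arrays was hybridised with RNA pooled from 4 rats, with 1 array in a group. No spread between animals can be had from pooled RNA, so no test was made and each ratio carries only the error that the scanner software gives for the spots. In cortex RNA, fewer cells of a type and less RNA per cell cannot be told apart.

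Neuropeptides are cut from larger precursors inside dense core vesicles and are released from neurons, often beside a fast transmitter. They act on G protein-coupled receptors, and peptidases outside the cell end their action. In the cerebellar cortex most neurons use glutamate or GABA, and peptide precursors are found in some interneurons and in incoming fibres whose cell bodies lie elsewhere.

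The comparison of the contralateral array with the control array asks what differed in the cerebellar hemisphere opposite to the infarct, where blood flow falls after a stroke. Intensities were brought to a common 75th percentile, a choice made here. A log2 ratio beyond 1 was counted, which is the threshold in the methods of the study. The 10 genes had 13 probes and 41 spots. A probe of 9 members was well above background, the call of the scanner software, in contralateral RNA, of 7 in ipsilateral RNA and of 9 in control RNA. A gene is called fully detected where each of its probes passed that call on each of the 3 arrays, which held for 6 members, Cck, Sst, Npy, Pdyn, Tac1 and Adcyap1.

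Cck, whose peptide acts in gut and brain, had 1 probe spotted 10 times. The scaled intensity of its spots ran from 907 to 1026 contralaterally with a median of 956, from 92.4 to 108 ipsilaterally with a median of 98.4, and in the control from 70.0 to 96.1 with a median of 79.9. The contralateral array was the high one, and its spots did not overlap those of either other array, whereas the spots of the ipsilateral and control arrays did. The log2 ratio of Cck was 3.56 with a scanner error of 0.21 contralateral to control, 3.28 with an error of 0.21 contralateral to ipsilateral, and 0.28 with an error of 0.21 ipsilateral to control, which turned to -0.26 without scaling. Spot by spot, the contralateral to control log2 ratio lay between 3.25 and 3.75 with an SD of 0.16. Spots of 1 array share 1 RNA pool, so their agreement describes the array and not the animals.

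**Figure D1:**
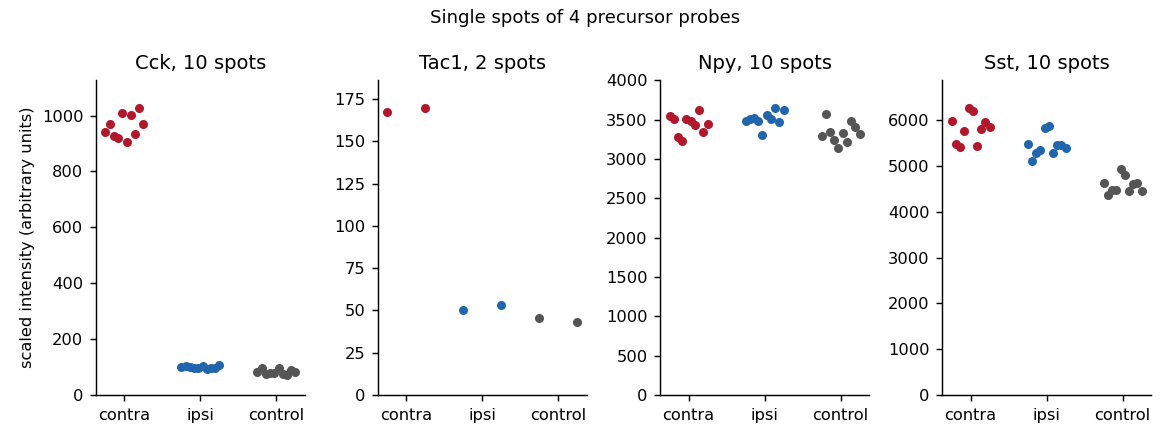
Scaled intensity (arbitrary units, linear axis from 0) of each spot of the probes of Cck, Tac1, Npy and Sst, 1 point a spot, for contralateral, ipsilateral and control RNA. The contralateral spots of Cck, from 907 to 1026, and those of Tac1, from 167 to 169, lie above the spots of both other arrays.

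Tac1, the precursor of substance P, also was highest on the contralateral array. Its 2 spots read 167 and 169 contralaterally, 50.3 and 53.1 ipsilaterally and 42.9 and 45.4 in the control. The contralateral spots lay above all others, and the ipsilateral spots lay a little above the control spots. The log2 ratio of Tac1 was 1.93 with an error of 0.22 contralateral to control, 1.70 with an error of 0.22 contralateral to ipsilateral and 0.23 with an error of 0.23 ipsilateral to control, which turned negative without scaling and with spike-in scaling. Normexp, a model of the background, was run with an offset of 50 on median spot signals, so more than the background model changed. It and 50 added to the intensity both shrink ratios of dim probes. Contralateral to control Tac1 then had 1.23 and 1.21, and contralateral to ipsilateral 0.89, under 1, and 1.103.

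Vip, a peptide that relaxes vessels and acts through cyclic AMP, had 1 spot, with a scaled intensity of 33.4 contralaterally, 5.70 ipsilaterally and 4.66 in the control. Only the contralateral value was well above background, so the folds of Vip are bounds. By the rule used here, Vip was at least 3.83-fold higher contralaterally than in the control and at least 2.89-fold higher than ipsilaterally. These bounds set the bright array against the lowest signal among probes well above background on the dim array. A probe's own signal there was used where it was higher. Qrfp, another peptide precursor, read 14.5 ipsilaterally, above the lowest such signal of 11.6, without being well above background. Bounds here and below are thus nominal and carry no scanner error. With normexp or with 50 added, the 2 log2 ratios of Vip were below 1. No fold is given for Vip between the ipsilateral and control arrays, both not well above background.

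Sst, a peptide that inhibits release from neurons, had 10 spots with a median scaled intensity of 5827 on the contralateral, 5426 on the ipsilateral and 4550 on the control array. After scaling, all 10 spots on each MCAO array, the lowest at 5411 and 5115, lay above the highest control spot of 4936. Unscaled, the mean over the spots was 6131 contralaterally, 4411 ipsilaterally and 5372 in the control, so this separation depends on the scaling. Of 22090 fully detected genes, 1971 had a higher contralateral to control ratio than Sst and 4331 a higher ipsilateral to control ratio. The log2 ratios of Sst were 0.34 contralateral to control and 0.25 ipsilateral to control, each with an error of 0.20, and the second was -0.28 without scaling and -0.01 with spike-in scaling. Npy, which inhibits transmitter release in many brain regions, had median spot intensities of 3468, 3507 and 3327 in the same order, with overlapping spots on the 3 arrays. Its log2 ratios of 0.04 and 0.07 to control were smaller than their errors of 0.20, and both turned negative without scaling and with spike-in scaling.

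The opioid precursors were read by probes that differed. Penk, the source of the enkephalins, had a bright probe with scaled intensities of 2430 (contralateral), 2402 (ipsilateral) and 1961 (control), and a dim one with 6.44, 17.2 and 9.76, of which the contralateral value was not well above background. The bright probe gave a log2 ratio of 0.31 contralateral to control and 0.29 ipsilateral to control, each with an error of 0.20, of which the second turned negative without scaling, while the dim one gave 0.82 with an error of 0.40 ipsilateral to control. Contralateral to control, the dim probe of Penk had a log2 ratio of -0.60 with an error of 0.53. The 2 probes thus had opposite signs there. As its contralateral value was not well above background, the dim probe is bounded at -0.10, at least 1.07-fold lower. Pdyn, the source of the dynorphins, had 1 spot with 15.4, 18.8 and 9.42. Both MCAO arrays were above the control array for Pdyn, with log2 ratios of 0.71 and 0.99 and errors of 0.38 and 0.39, which were 0.14 and 0.21 with 50 added.

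Adcyap1, whose peptide is related to that of Vip, had 2 probes of 1 spot each. They read 47.5 and 33.6 contralaterally, 42.1 and 36.9 ipsilaterally and 32.7 and 33.4 in the control. Contralateral to control, the log2 ratios of these probes were 0.54 and 0.01 with errors of 0.23 for both, so 1 probe was above its error and the other was not. Over both probes, the ipsilateral to control log2 ratio of Adcyap1 was 0.25, and -0.28 without scaling and -0.0025 with spike-in scaling.

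Crh, which drives the pituitary stress response and is also found in climbing fibres of the cerebellum, had 2 probes of 1 spot each. They read 10.5 and 14.01 on the contralateral array and 12.5 and 39.0 on the control array, and 10.5 and 5.41 on the ipsilateral array, where neither was well above background. The second probe was highest on the control array, with a contralateral to control log2 ratio of -1.48 with an error of 0.29, and was at least 3.38-fold lower on the ipsilateral array. The first gave -0.26 with an error of 0.39 contralateral to control and was at least 1.08-fold lower on the ipsilateral array, so the 2 probes of Crh differed in size. Over both, the contralateral to control log2 ratio was -0.87, and -0.08 with normexp. With normexp the ipsilateral to control log2 ratio over both was 0.11, so the lower ipsilateral level of Crh depends on the processing. Nts, a peptide that acts on dopamine neurons, was well above background only on the control array, at 11.3 against 1.97 contralaterally and 4.13 ipsilaterally. Its contralateral value was at least 1.24-fold lower than control, and its ipsilateral value allows no bound. With normexp the contralateral to control log2 ratio of Nts was -0.10.

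**Figure D2:**
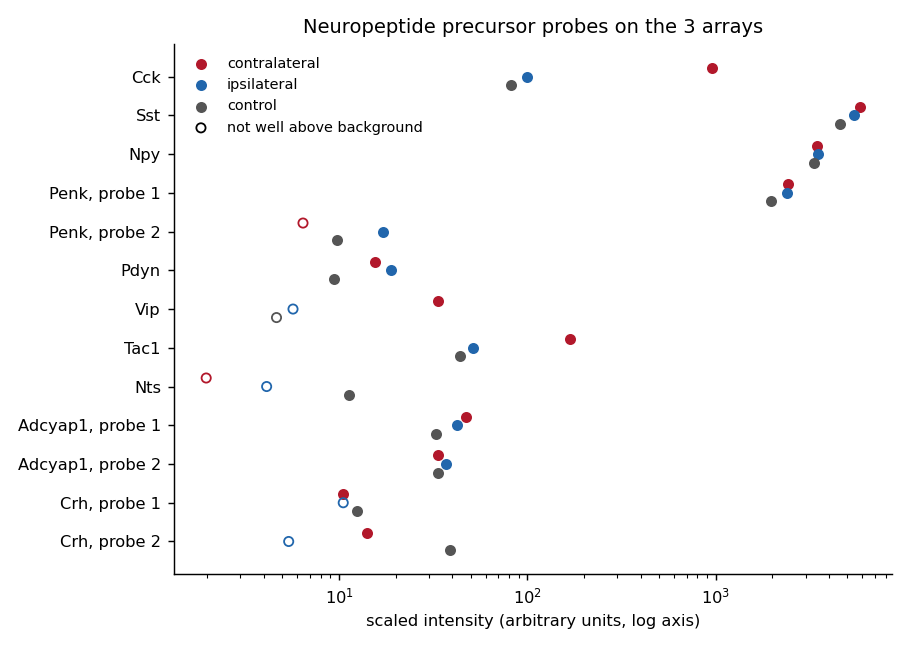
Scaled intensity (arbitrary units, log axis) of each of the 13 probes of the neuropeptide precursors on the 3 arrays, as the mean over its spots. Open circles were not well above background, and the contralateral point of Cck, at 960, lies far from its ipsilateral point at 99.0 and its control point at 81.6.

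**Figure D3:**
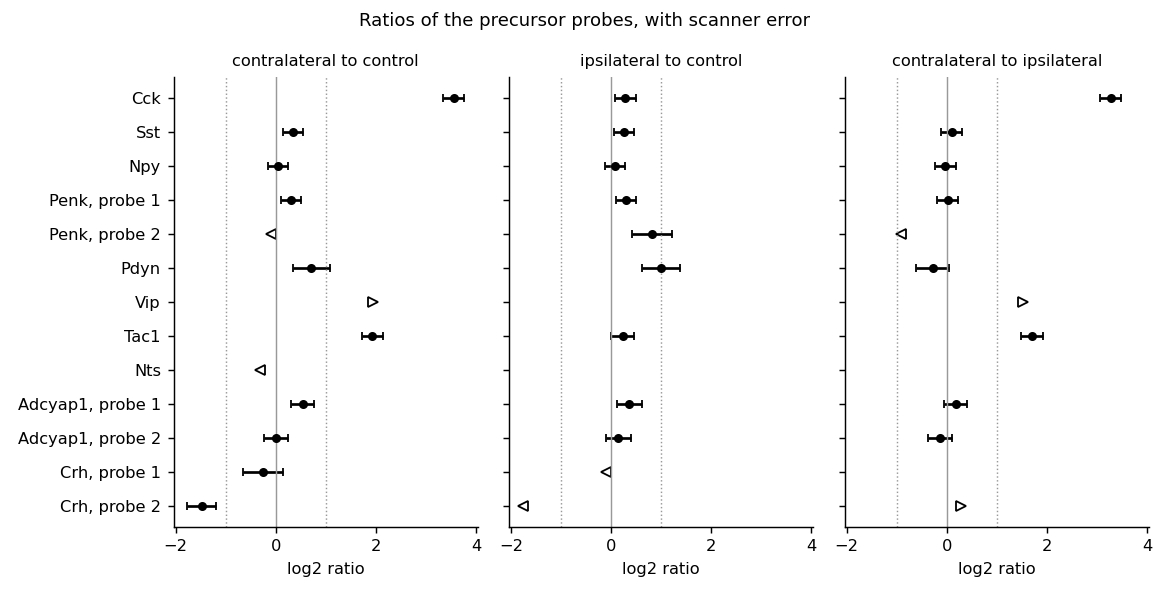
Log2 ratio of each probe in the 3 comparisons, with bars for the scanner error, dotted lines at -1 and 1, and open triangles for bounds where 1 array was not well above background. Cck and Tac1 lie beyond 1 in the comparisons of the contralateral array, and no point stands where no ratio or bound could be given.

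Contralateral to control, 3 of the 10 members, Cck, Vip and Tac1, had a log2 ratio above 1, against 4.7% of all 38973 genes, and 1 member, Nts, was below -1, against 6.48%. Among the 6 fully detected members, Cck and Tac1 were above 1, against 1.41% of 22090 fully detected genes, and 0 were below -1, against 0.856%. The members were chosen on this comparison, so nothing is read from these counts. Ipsilateral to control, 0 members were above 1, against 13.4% of all genes, and Nts and Crh were below -1, against 3.14%. Of the 6, 0 were above 1 and 0 below -1 there, against 3.1% and 0.801%. Contralateral to ipsilateral, Cck, Vip and Tac1 were above 1, against 1.85% of all genes, and Nts was below -1, against 13.4%. Of the 6, Cck and Tac1 were above 1, against 0.217%, and 0 were below -1, against 1.54%. The 2 comparisons with the control array share that array, and those with the contralateral array share that one. The counts of Vip, of Nts and, ipsilaterally, of Crh rest on values not well above background. Nts has no bound ipsilateral to control or contralateral to ipsilateral, so no direction is read for it there.

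Scaling moved the median of all genes. Ipsilateral to control it was 0.13 in the setting used here, -0.40 with unscaled arrays and -0.12 where spike-in probes set the scale, while over fully detected genes it was 0.03, -0.50 and -0.22. Relative to that last median, the ipsilateral to control log2 ratio of Cck was 0.25 to 0.29 over the scalings. The contralateral to control ratio of Cck relative to its median was 3.54 to 3.55, and that of Tac1 was 1.90 to 1.92.

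Among fully detected genes outside the 10, 4 of the 5 named genes nearest to Cck in their pair of log2 ratios to control, by Euclidean distance over the 2 ratios, were Rsbn1l, Frem3, Phka1 and Spata21. Rsbn1l read 460 on the contralateral, 40.0 on the ipsilateral and 47.6 on the control array, at a distance of 0.60 from Cck. Its log2 ratios were 3.27 and -0.25. Frem3 stood at a distance of 1.09 with 2.57 and -0.19, Phka1 at 1.17 with 2.70 and 1.07, and Spata21 at 1.42 with 2.65 and 1.37. Each of the 4 was read by 1 spot. With normexp Rsbn1l had 2.10 and 0.22 and Frem3 had 1.11 and 0.25, so both of their ipsilateral to control ratios turned positive. With normexp the contralateral to control ratios of Phka1 and Spata21 were under 1, at 0.92 and 0.90, and both of their ipsilateral to control ratios fell under 1 without scaling and with normexp.

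Promoter sequences from RefSeq (build GRCr8), from 250 bases before to 50 bases after the start of the gene, were found for 7 of the 10 members, all but Cck, Penk and Crh. They were searched on both strands for the cyclic AMP response element TGACGTCA, its part CGTCA, which lies within it, the GC box GGGCGG and the TATA box TATAAA. The letters CGTCA were in 4 of the 7, those of Sst, Vip, Tac1 and Nts, against 21.2% of 33469 promoters of this length. The full TGACGTCA was in that of Sst alone, against 1.83% of promoters. GGGCGG was in 1 of the 7, Npy, against 33.1%, and TATAAA in 3, Pdyn, Vip and Adcyap1, against 14.2%. The 4 promoters with CGTCA are printed because 2 of them belong to members with a contralateral to control log2 ratio above 1, Tac1 and Vip, and 2 to members without one, Sst and Nts. Capitals mark CGTCA, its reverse complement or the full element.
Tac1, chr4:36645333-36645632, plus strand: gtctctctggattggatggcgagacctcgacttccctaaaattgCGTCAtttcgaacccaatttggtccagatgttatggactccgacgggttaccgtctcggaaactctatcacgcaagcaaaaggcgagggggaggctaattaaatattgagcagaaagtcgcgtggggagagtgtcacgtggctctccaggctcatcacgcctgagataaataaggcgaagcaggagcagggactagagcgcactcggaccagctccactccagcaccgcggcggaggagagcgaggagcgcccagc
Vip, chr1:44470230-44470529, plus strand: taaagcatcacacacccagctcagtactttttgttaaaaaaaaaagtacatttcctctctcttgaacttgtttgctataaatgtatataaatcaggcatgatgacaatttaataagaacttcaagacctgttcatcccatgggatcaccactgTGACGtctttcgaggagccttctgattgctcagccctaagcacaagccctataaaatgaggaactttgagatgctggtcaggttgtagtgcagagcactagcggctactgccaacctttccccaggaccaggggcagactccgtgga
Sst, chr11:90461296-90461595, plus strand: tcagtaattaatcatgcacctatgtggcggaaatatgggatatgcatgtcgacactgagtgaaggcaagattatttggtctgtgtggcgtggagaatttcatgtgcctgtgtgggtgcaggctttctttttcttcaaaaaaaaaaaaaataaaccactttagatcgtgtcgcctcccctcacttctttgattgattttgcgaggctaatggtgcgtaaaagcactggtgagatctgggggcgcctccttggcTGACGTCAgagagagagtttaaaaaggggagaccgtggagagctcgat
Nts, chr7:39460839-39461138, minus strand: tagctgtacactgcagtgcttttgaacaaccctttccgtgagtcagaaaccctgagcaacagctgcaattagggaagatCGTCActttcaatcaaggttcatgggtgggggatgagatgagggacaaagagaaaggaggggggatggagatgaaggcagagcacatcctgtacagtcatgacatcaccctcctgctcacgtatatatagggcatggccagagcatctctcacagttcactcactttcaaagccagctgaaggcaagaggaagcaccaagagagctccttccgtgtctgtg
The first base of the match lay 206 bases before the start in Tac1, 97 in Vip and 171 in Nts, and in Sst at base 3, counting the start as 1. A match describes letters and does not show binding.

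The list of receptors of these peptides, which also holds the binding protein Crhbp, had 26 genes, all on the array. Of these, 12 were fully detected, and 0 of the 12 were beyond 1 in any comparison. Of all fully detected genes 0.217% to 3.1% were beyond 1, by comparison and direction. Without scaling, Sstr1 was at -1.10 ipsilateral to control. The median log2 ratio of the 12 was 0.07 contralateral to control and 0.11 ipsilateral to control, against 0.01 and 0.03 over all fully detected genes, the first was -0.07 over all 26, and both list medians turned negative without scaling and with spike-in scaling. Named after their values were seen, the lowest and highest of the 12 contralateral to control were the somatostatin receptors Sstr1 and Sstr4. Sstr1 read 114, 118 and 175 with a log2 ratio of -0.62, and Sstr4 read 28.5, 28.3 and 17.1 with 0.74. Of the cholecystokinin receptors, also named afterwards, Cckar was well above background on no array and Cckbr read 19.6, 17.0 and 18.2 as the mean of 2 probes. Cckar, Npy5r, Oprm1, Oprk1, Tacr1, Tacr2 and Ntsr1 were the 7 receptors well above background on no array.

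Among 49 other peptide precursors, 48 were on the array and 23 were fully detected, with a median log2 ratio of -0.14 contralateral to control and -0.11 ipsilateral to control, the second of which was 0.07 over all 48. The brightest, Gal (galanin), read 3122, 3467 and 2980 in the order contralateral, ipsilateral, control. The largest contralateral to control log2 ratio among the 23 was 0.48 for Adm (adrenomedullin, which widens vessels) and the smallest was -1.43 for Trh (thyrotropin-releasing hormone), at 21.6, 36.1 and 58.4, which was -0.37 with normexp. Ghrl (ghrelin), chosen after its values were seen, read 267 contralaterally, 5.63 ipsilaterally, where it was not well above background, and 10.1 in the control, from 1 spot. Its log2 ratio was 4.73 with an error of 0.36 contralateral to control, and 2.04 with normexp, and it was at least 23.1-fold higher than on the ipsilateral array. Npvf (neuropeptide VF), also chosen afterwards, went the other way, at 6.74 contralaterally, where it was not well above background, 41.3 ipsilaterally and 35.0 in the control. It was at least 3.84-fold lower contralaterally than in the control and at least 4.53-fold lower than ipsilaterally. With normexp these log2 ratios were -0.19 and -0.64.

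Fully detected genes of peptide storage, cutting and degradation had log2 ratios within 1 in each comparison, as had most fully detected genes. Without scaling, however, Pcsk5 was -1.08 ipsilateral to control. The granins, proteins of dense core vesicles, had 6 of 7 genes fully detected, with contralateral to control log2 ratios from -0.06 to 0.20. The processing enzymes had 14 of 16 fully detected, from -0.65 for Cpz to 0.22 for Pcsk6, with a median of -0.01. The degrading enzymes had 11 of 13 fully detected, from -0.38 for Enpep to 0.16 for Mme, and the brightest, Npepps, read 9161, 8776 and 8711. Medians of these lists near 0 changed sign under some scalings.

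The tissue label was checked against cell markers. All 10 granule cell markers and all 9 Purkinje cell markers were fully detected, with Cbln1 at 41383, 41873 and 44298 and Aldoc at 228140, 256822 and 188969 as the brightest of each list. The median contralateral to control log2 ratio was -0.08 for granule cell markers, from -0.87 for Grm4 to 0.45 for Zic2, and 0.14 for Purkinje cell markers, from -0.06 for Slc1a6 to 0.27 for Aldoc. Among 10 interneuron markers it was 0.09, from -0.32 for Grm2 to 0.32 for Pax2. Pax2, read by 1 spot, alone among these markers was beyond 1 in any comparison. It was at 1.12 ipsilateral to control, where 3.1% of fully detected genes were above 1. That ratio fell to 0.58 without scaling and 0.66 with normexp. Without scaling, Grm4 was below -1 in both comparisons with the control. Purkinje and interneuron medians turned negative without scaling.

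Markers of other regions were set beside the high Cck, Tac1 and Vip on the contralateral array. Of 20 forebrain neuron markers 19 were on the array and 9 were fully detected. Of these 9, 2, Nrgn and Bcl11b, were above 1 contralateral to control, against 1.41% of all fully detected genes. The median contralateral to control log2 ratio was 0.33 over the 9 and 0.02 over the 19. Bcl11b read 24.8, 19.2 and 10.6, with a log2 ratio of 1.23, which was 0.43 with normexp, and its 2 probes gave 0.63 and 1.83. Nrgn (neurogranin, of forebrain principal neurons) read 163, 39.7 and 45.8 over 10 spots, with log2 ratios of 1.83 contralateral to control, 2.04 contralateral to ipsilateral and -0.21 ipsilateral to control. The contralateral array was the high one for Nrgn, as for Cck, and with normexp its contralateral ratios were 1.19 and 0.96. The summed scaled level of the 19 was 9209, 9173 and 7921, with Ppp1r1b the brightest at 5232, 5150 and 4175. Without Ppp1r1b the sum was 3977, 4023 and 3747. Tbr1, Fezf2 and Dlx5 were not well above background on any array. Among the 9 fully detected, the smallest contralateral to control log2 ratio was -0.08 for Adora2a, and Rprm, not fully detected, had -0.94. The part of forebrain RNA in the ratios of Cck, Tac1 and Vip was not tested.

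Of 14 midbrain and thalamus markers 12 were on the array and 6 were fully detected. Contralateral to control 0 of the 6 were above 1, against 1.41% of fully detected genes, and 1 was below -1, against 0.856%. The latter was Slc6a3, at -1.26, and at -0.17 with normexp. Among the 6 the largest was 0.30 for Tfap2d. Over the 12, the summed level was 1403, 1416 and 1427, and 841, 711 and 856 without the brightest, Otx2. Gata3 and Pax7 were well above background on no array. Of 16 brainstem markers 15 were on the array and 3 were fully detected, from -0.14 for Th to 0.12 for Slc6a5. Contralateral to control 0 of the 3 were beyond 1, against the same shares. Over the 15, the summed level was 1712, 1609 and 1714, and 1119, 1013 and 1169 without the brightest, Slc6a5. Phox2a, Slc6a4, Chat, Slc5a7, Hoxb5 and Hoxc4 were well above background on no array. Lists shared genes, so their sums and medians are not separate. Slc6a5 was also an interneuron marker, Slc17a6 also a midbrain and thalamus marker, and Otx2 was in that list and among the choroid plexus markers. Gad1 was both a Purkinje cell and an interneuron marker.

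Choroid plexus markers differed between the arrays. Ttr (transthyretin), the brightest, read 9910 on the contralateral, 75329 on the ipsilateral and 32961 on the control array. The summed level of the 10 markers was 11837, 78268 and 35655, and without Ttr 1927, 2939 and 2693. Of the 8 that were fully detected, 2 were below -1 contralateral to control, against 0.856% of fully detected genes. Ipsilateral to control 1 was above 1, against 3.1%, and 1 was below -1, against 0.801%. Contralateral to control they ran from -2.12 for Slc4a5, which was -0.55 with normexp, to -0.02 for Otx2. The contralateral array, where Cck, Tac1 and Vip were high, had the lowest Ttr. The part of choroid plexus RNA in the ratios of the neuropeptide precursors was not tested.

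**Figure D4:**
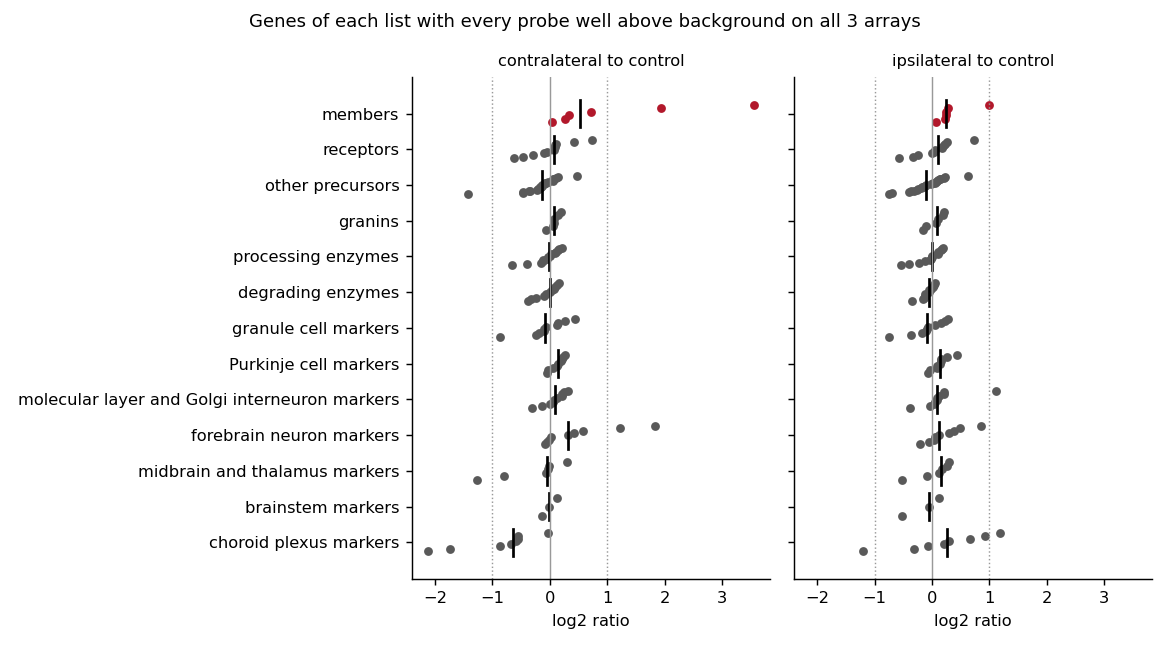
Log2 ratios contralateral to control and ipsilateral to control for the fully detected genes of each list, 1 point a gene, with a bar at the list median and dotted lines at -1 and 1. The members, in red, run from 0.04 for Npy to 3.56 for Cck contralateral to control and from 0.07 to 0.99 ipsilateral to control, and directions of medians near 0 depend on the scaling.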

How the data were processed

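Cy3-labelled RNA was hybridised to 1-colour Agilent rat arrays, and the authors deposited the spot intensity read with Agilent Feature Extraction 12.1.0.3, background-subtracted and not scaled between arrays. The deposited value table is that intensity times 1 factor an array (1.12, 1.45 and 1.04 for contralateral, ipsilateral and control; medians 139, 140 and 147), and the paper, which mentions normalising to controls of each chip, does not say if this is that factor. Here log2 intensities of 58717 spots that are not controls were shifted to a common 75th percentile (Python 3.11.15, numpy 2.4.6, pandas 2.3.3), 759 outlier spots were left out, and spots were averaged by probe and probes by gene. Of 39957 accessions, 17622 matched 1 RefSeq symbol (GRCr8). A scanner error was averaged over spots, since most of it is shared. The calculation was tested on simulated data. Normexp used limma 3.58.1 with an offset of 50, on the median signal and median background of each spot. Members and lists were chosen with earlier results of these data known. Named were the members, listed receptors, granins and processing enzymes beyond 1 with every probe well above background (none), the extremes and brightest of other lists, and the 5 nearest to Cck; some genes under this rule are not reported here. With 3 arrays on 1 slide, the number of arrays limits precision.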

Additional observations from a re-analysis of the deposited data

How the results depend on the processing

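The contralateral ratios of Cck kept their direction and stayed above 1 under all 9 alternatives, from 2.89 to 3.59 contralateral to control and from 2.57 to 3.66 contralateral to ipsilateral. They moved by more than the scanner error with normexp (2.89 and 2.57) and with 50 added to the intensity (2.94 and 2.76), both of which shrink ratios of dim probes, and contralateral to ipsilateral without scaling (3.66). Cck ipsilateral to control, 0.28, was -0.26 without scaling and 0.023 with spike-in probes, which moved all genes alike.

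Members beyond 1 numbered 4 contralateral to control, and 2 with normexp, with 50 added or over fully detected members (each probe well above background on the 3 arrays), and 5 without scaling or with the brightest probe of a gene. Ipsilateral to control they were 2, 0 with normexp, with 50 added or over fully detected members, and 3 with a common median. Contralateral to ipsilateral they were 4, and 1 with normexp, 2 with 50 added, 2 fully detected, 3 with spike-in scaling and 5 with the brightest probe. Ipsilateral to control, Nts (-1.45) reversed to 0.30 and Crh (-1.55) to 0.11 with normexp. Both use ipsilateral values not well above background, so no direction is read for Nts. For Crh the bounds put both probes lower on the ipsilateral array in the setting used here, which did not hold with normexp. Of 243 values for the other 9 members, 195 moved by less than the scanner error, 46 by more and 2, these of Nts and Crh, reversed, which means that a value beyond 1 changed sign. Sign changes of smaller values are counted by size alone, and ipsilateral to control Sst, Npy, Vip, Tac1, Adcyap1 and the bright probe of Penk changed sign without scaling. Tac1 contralateral to ipsilateral fell under 1 with normexp, at 0.89. Vip fell under 1 with normexp (0.68 contralateral to control, 0.11 contralateral to ipsilateral) and with 50 added (0.61 and 0.58).

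Genes above and below 1 and -1 numbered 1833 and 2526 contralateral to control, 5217 and 1223 ipsilateral to control, and 722 and 5217 contralateral to ipsilateral. They were 72 and 51, 167 and 24, and 7 and 39 with normexp, and 89 and 93, 143 and 80, and 43 and 59 with 50 added. Fully detected, they were 312 and 189, 685 and 177, and 48 and 341, and with a probe above it on at least 1 array 1008 and 1321 contralateral to control, 2456 above 1 ipsilateral to control, and 445 and 2288 contralateral to ipsilateral. Without scaling they were 1429 and 3143, 2618 and 3352, and 1414 and 3459, and with quantile normalization 2137 and 2046, 2865 and 2434, and 2157 and 2521. Spike-in scaling gave 3862 and 1907 ipsilateral to control. Of the genes beyond 1 in that comparison 81.0% were above 1, and 43.9% without scaling, 66.9% with spike-in probes and 54.1% with quantile normalization. Over fully detected genes this was 79.5%, and 10.5% without scaling. With 1 array a group no paired analysis was possible. Signal over background limits Vip, Nts, Crh and the dim probe of Penk to bounds on some arrays.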
